A study of Mus musculus with 10 samples.

Results

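Among T cells from mouse colorectal carcinomas, 106 cells carried RNA of Cd163l1 or Trdv4 and had no productive T cell receptor beta (TRB) chain. They were chosen from 5 single-cell RNA libraries: a cell needed at least 300 detected genes, at most 10% mitochondrial molecules, at least 1 molecule of Cd3e or Cd3g, no productive TRB contig in the receptor library of the same tumour, and at least 1 molecule of Cd163l1 or Trdv4. They were 106 of 20939 T cells that met the first 3 of these criteria, or 0.506%, and of 22590 cell barcodes in all. They are called Cd163l1/Trdv4 cells here, since the receptor data below do not place every one of them among gamma delta T cells.

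The study profiled T cells that had infiltrated colorectal carcinomas of mice, asking how Stellera chamaejasme, a medicinal plant, and antibody blockade of the checkpoint receptor PD-1 act on them. Each tumour gave 1 RNA library made with a 5' single-cell kit and 1 receptor library: 2 tumours were untreated, 1 was treated with S. chamaejasme, and 2 received the combination of S. chamaejasme and anti-PD-1. The labels give no mouse strain, age, tumour line or dose, and a group given anti-PD-1 alone was not analysed here. They do not say whether tumours of 1 group came from separate animals, so p-values measure at most the spread between these samples. The untreated tumours are titled in another style than the treated ones, so that a batch cannot be told apart from treatment.

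Gamma delta T cells carry a receptor built from a gamma and a delta chain in place of the alpha and beta chains of most T cells. In the mouse, one fetal-derived wave pairs the V gamma 6 segment (Tcrg-V6) with the V delta segment Trdv4, settles in skin, mucosa, uterus and similar tissues and in tumours, and makes interleukin 17. Cd163l1 encodes a scavenger receptor, also known as Scart1, that marks such cells, and its relative 5830411N06Rik (Scart2) marks another group of interleukin 17-producing gamma delta cells.

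The V segments are what identify these receptors in 5' reads, so the 3' ends of the delta and gamma segments concerned are shown. Each sequence is the last 120 bases of the segment in the mouse genome build GRCm38 (mm10), 5' to 3' on the coding strand; the capitals run from the TGT codon that opens the third complementarity-determining region (CDR3), the stretch that contacts antigen, to the segment's end.
Trdv4, chr14:54075396-54075515, plus strand: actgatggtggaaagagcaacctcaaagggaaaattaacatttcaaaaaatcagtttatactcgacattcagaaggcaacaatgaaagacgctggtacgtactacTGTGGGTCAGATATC
Tcrg-V6, chr13:19190810-19190929, plus strand: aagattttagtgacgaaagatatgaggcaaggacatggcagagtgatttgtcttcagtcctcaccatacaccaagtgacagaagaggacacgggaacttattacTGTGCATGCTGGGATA
Tcrg-V5, chr13:19192606-19192725, plus strand: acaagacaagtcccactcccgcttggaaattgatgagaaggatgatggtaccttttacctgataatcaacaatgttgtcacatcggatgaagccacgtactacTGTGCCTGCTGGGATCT
Trdv5, chr14:54148662-54148781, minus strand: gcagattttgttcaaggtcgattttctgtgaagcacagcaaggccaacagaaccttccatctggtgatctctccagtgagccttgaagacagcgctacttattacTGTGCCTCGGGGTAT
Between them these 120 bases are identical at 46.7% (Trdv4 and Trdv5) to 55.0% (Trdv5 and Tcrg-V6) of positions, so they are not near-identical copies. Tcrg-V5 begins 1348 bases after Tcrg-V6 ends. Trdv4 lies at chr14:54074905-54075515 and the delta constant gene Trdc downstream of it at chr14:54142851-54148868, both on the plus strand, while Cd163l1 lies at chr7:140218267-140231145.

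The libraries held 2367 to 5709 barcodes and between 8763821 and 27759543 unique molecular identifiers (UMIs, counts of distinct RNA molecules), 97967927 in all. Cd163l1/Trdv4 cells had a median of 3880 UMIs (range 665 to 11042) and 1430 genes per cell, against medians of 4490.5 UMIs in T cells with a productive TRB contig and 3781 in the other cells with a Trdc UMI. No doublet caller was run; 1 of the 106 cells lay above the 98th percentile of UMIs. Of 22337 distinct barcodes, 251 occurred in more than 1 RNA library, among them those of 2 Cd163l1/Trdv4 cells. Values of the 5 libraries are given below in the order untreated 1, untreated 2, S. chamaejasme, combination 1, combination 2; where levels are in CPM, they are counts per 1000000 UMIs, summed over all cells of a class in a library.

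The 106 cells divided over the libraries as 19, 17, 41, 14 and 15. As a share of T cells this was 0.858% in untreated 1 (Wilson 95% interval 0.550 to 1.34), 0.481% in untreated 2 (0.301 to 0.770), 0.778% in S. chamaejasme (0.574 to 1.05), 0.274% in combination 1 (0.164 to 0.460) and 0.311% in combination 2 (0.189 to 0.513). Both combination tumours were below both untreated tumours, although the intervals of untreated 2 overlapped theirs. The untreated mean was 0.670% ± 0.266 (SD, n = 2) and the combination mean 0.293% ± 0.0261 (SD, n = 2), a difference of -0.377 percentage points with a two-sided exact permutation p of 0.333, the smallest that 2 against 2 can give. TRB-negative T cells as a whole, from which these cells are drawn, made up 37.3%, 30.7%, 27.9%, 16.0% and 14.4% of T cells in the 5 libraries. As a share of TRB-negative T cells the Cd163l1/Trdv4 cells were 2.30%, 1.57%, 2.79%, 1.71% and 2.16%, where the untreated and combination tumours overlapped. With only the cells that had both genes, the difference in the share of T cells was -0.153 points (exact permutation p = 0.667). All intervals and limits cover counting error only.

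**Figure D1:**
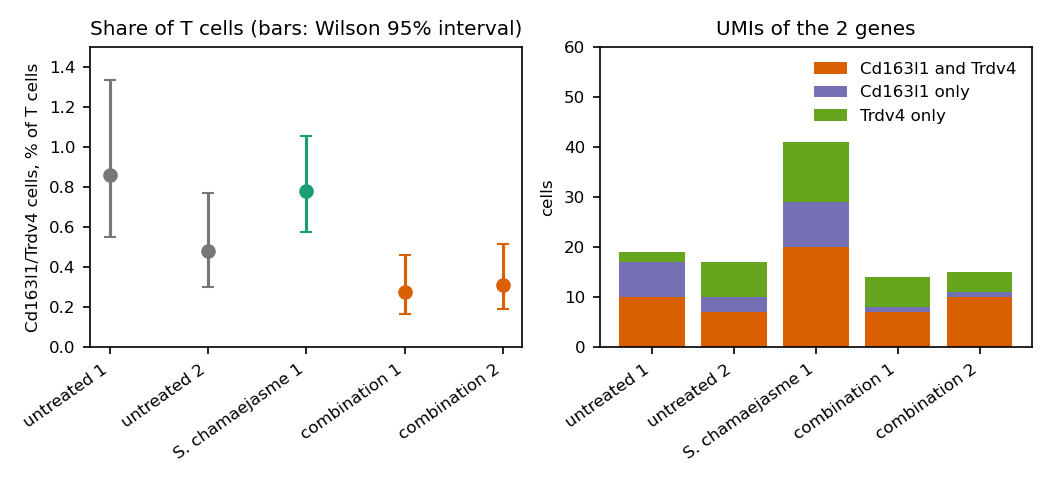
Left, Cd163l1/Trdv4 cells as a percentage of T cells in each library, with Wilson 95% intervals; right, the number of such cells with UMIs of both genes, of Cd163l1 only or of Trdv4 only. The shares run from 0.274% in combination 1 to 0.858% in untreated 1, and cells with both genes occurred in every library.

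Of the 106 cells, 54 had UMIs of both genes (10, 7, 20, 7 and 10 by library), 21 of Cd163l1 only (7, 3, 9, 1 and 1) and 31 of Trdv4 only (2, 7, 12, 6 and 4). The entry criterion was met with a single UMI in 30 cells and with 2 or more in 76, and reached 15 UMIs of Cd163l1 and 44 of Trdv4 in 1 cell. As chosen, Cd163l1 stood at 839, 691, 886, 844 and 952 CPM and Trdv4 at 1481, 2016, 1855, 1379 and 2103 CPM, values that describe the selection and are not tested. Just outside the rule, 76 of 16048 TRB-positive cells (0.474%, interval 0.379 to 0.592) had a UMI of either gene and 6 had both, against 106 of 4891 TRB-negative T cells (2.17%, 1.80 to 2.61). Of those 6 cells, 4 had a Tcrg-V6 UMI and 5 a Trac UMI. A further 29 cells missed only the Cd3 criterion; 27 of them had Trdv4, 11 had Fcer1g, a signalling adaptor of natural killer (NK) and myeloid cells, and none had Tcrg-V6 (0 of 29 allows a share of up to 10.3%).

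The receptor genes separated the cells with both genes from the others. Tcrg-V6 was detected in 46 of the 54 cells with both (85.2%), in 3 of 21 with Cd163l1 only (14.3%) and in 1 of 31 with Trdv4 only (3.23%), against 1 of 198 other Trdc cells (0.505%) and 38 of 16048 TRB-positive cells (0.237%). In the cells with both it was present in 10 of 10, 4 of 7, 16 of 20, 7 of 7 and 9 of 10 by library, so Trdv4 and Tcrg-V6 were found together in every tumour. The constant gene Trdc was detected in 27, 4 and 9 cells of the 3 sets, or 40 of 106 (37.7%), and Tcrg-C1, the constant gene of the cluster that holds Tcrg-V6, in 36, 6 and 6. The gamma segment Tcrg-V5 was detected in 12 of the 54 cells with both genes, 1 of 21 with Cd163l1 only and 0 of 31 with Trdv4 only. It was found in 2 of 198 other Trdc cells. The delta segment Trdv5 was found in 1 of the 54 cells with both genes, 5 of 21 with Cd163l1 only and 6 of 31 with Trdv4 only. Trav15-1-dv6-1 and Trav15-2-dv6-2, segments named for both alpha and delta chains, were found in 7 and 4 of the 31 with Trdv4 only. Each was found in 0 of 54 with both genes and 0 of 21 with Cd163l1 only. Among the 198 other Trdc cells 39 and 66 had them. A single Trdv4 UMI had admitted 19 of the 31. Trdv1 had no UMI in the 106 cells, which allows a share of up to 2.83%.

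Trac, the alpha constant gene, was detected in 16 of the 21 cells with Cd163l1 only, in 11 of 54 with both genes and in 4 of 31 with Trdv4 only. The beta constant genes were found in all 3 sets: Trbc2 in 15 of 21, 45 of 54 and 23 of 31, and Trbc1 in 7, 29 and 11. Trbc2 stood at 671, 317, 810, 1310 and 1093 CPM against 680 to 838 in TRB-positive cells, so the absence of a productive beta contig did not go with an absence of beta constant RNA. A productive alpha chain (TRA) contig was present in 11 of the 106 cells; 10 of these had a Trac UMI, none had Trdc, and 6 had entered on a single UMI. The other 95 cells had no contig of any kind and held all 40 cells with Trdc and 49 of the 50 with Tcrg-V6. Of the 12 alpha chains, 3 occurred in another cell of the same tumour, and for 2 of these a beta chain was read in such a cell; their whole CDR3 is printed in capitals from its TGT codon.
S. chamaejasme, TRAV13-1 with TRAJ40: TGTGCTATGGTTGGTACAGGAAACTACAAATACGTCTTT
untreated 1, TRAV21-DV12 with TRAJ48: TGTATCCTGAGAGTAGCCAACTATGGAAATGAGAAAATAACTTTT
The first chain occurred in 7 other cells of its tumour, 2 of them with a TRBV31 beta chain, and the second in 1 other cell, with a TRBV14 beta chain and Il17a. For cells such as these the label of gamma delta T cell goes against the receptor data.

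**Figure D2:**
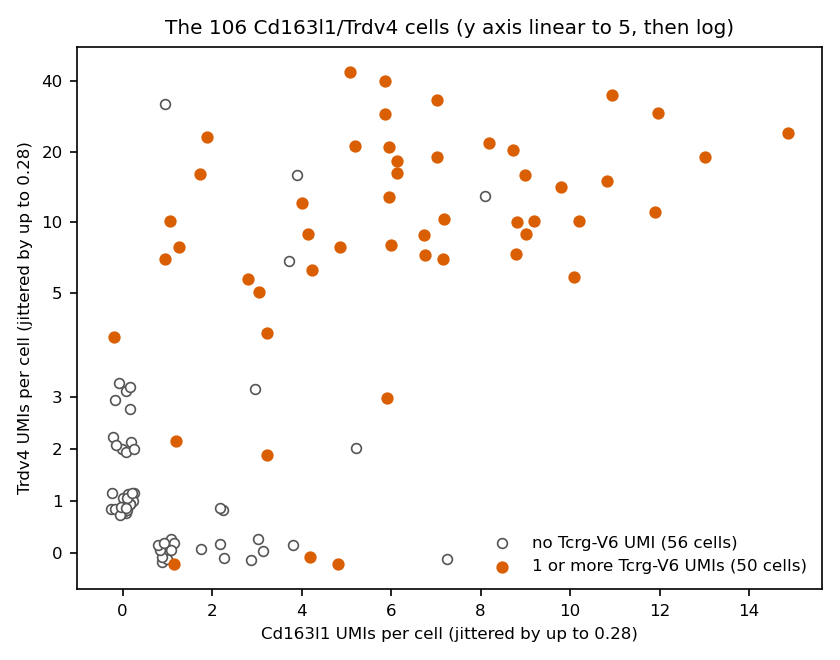
Each point is 1 of the 106 cells, placed by its UMIs of Cd163l1 (x axis) and Trdv4 (y axis, linear to 5 and logarithmic above) and filled where Tcrg-V6 was detected. The 50 cells with Tcrg-V6 lie mainly where both genes are high, and cells along either axis mostly lack it.

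Against TRB-positive T cells of the same tumours, the Cd163l1/Trdv4 cells differed in 1044 of 8877 genes tested (11.8%; 419 higher, 4.72%, and 625 lower, 7.04%; edgeR's quasi-likelihood test with the library as a block, Benjamini-Hochberg adjusted p under 0.05). The split depends on the scaling: it was 515 higher and 423 lower with DESeq2-type size factors in edgeR (RLE) and 442 and 257 in DESeq2. The median difference of all genes was -0.30 log2 in the first fit and -0.13 and -0.16 in the other 2. Of the 1044 genes, 779 had the same direction in all 5 libraries. In this fit edgeR drew every gene's spread to the common trend, so a p-value can be too small for a gene that varies more between libraries. With edgeR's robust estimate of the spread 419 genes were higher and 622 lower.

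The largest differences were in receptor genes and in a small set of genes that TRB-positive cells hardly expressed. Tcrg-V6 stood at 377, 101, 399, 345 and 682 CPM, against at most 1.86 CPM in TRB-positive cells, 7.96 ± 0.30 log2 higher (SE; edgeR adjusted p = 1.12e-145). Blk, a Src-family kinase needed for the development of interleukin 17-producing gamma delta cells, stood at 154, 144, 234, 276 and 223 CPM against at most 1.45, 7.92 ± 0.37 higher (edgeR adjusted p = 4.66e-96). The classes did not overlap for either gene, nor for the genes that follow in this paragraph. Abi3bp, an extracellular matrix protein gene, was at 112 to 176 CPM and 8.42 ± 0.48 log2 higher, and Ptgs2, which encodes the prostaglandin-forming enzyme COX-2, at 83.9 to 374 CPM and 8.38 ± 0.46 higher. Clnk, an adaptor of immunoreceptor signalling, was 7.07 ± 0.42 higher and Rbpms2, an RNA-binding protein gene, 6.67 ± 0.43 higher. Trdc (126 to 274 CPM) was 6.24 ± 0.35 higher and Tcrg-C1 (115 to 321 CPM) 5.07 ± 0.31 higher. Tcrg-V5 (23.5 to 115 CPM) was 6.19 ± 0.54 higher (edgeR adjusted p = 6.8e-28).

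Among the 19 transcription factors of type 17 and gamma delta T cells that could be tested, 8 were higher and 5 lower. Over all genes 4.72% were higher and 7.04% lower. The median of the factors was 0.24 log2 against -0.30 over all genes. Zbtb16, which encodes PLZF, the factor of innate-like T cells, stood at 97.8, 57.6, 82.3, 155 and 129 CPM against at most 3.85 in TRB-positive cells, 4.96 ± 0.42 higher (edgeR adjusted p = 4.29e-30). It was above TRB-positive cells in all 5 libraries. Rora, an orphan nuclear receptor gene, and Ahr, the aryl hydrocarbon receptor, were 1.74 ± 0.17 and 1.72 ± 0.20 higher. Maf, a factor that interleukin 17-producing gamma delta cells require, was at 139 to 207 CPM against 102 to 182 and was not called (0.12 ± 0.23, edgeR adjusted p = 0.826). Sox13, a fetal gamma delta factor, was too low to test; it was detected in 13 of 54 cells with both genes, 2 of 21 with Cd163l1 only and 0 of 31 with Trdv4 only, the last allowing a share of up to 9.68%.

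Of 6 type 17 cytokine genes tested, 4 were higher in Cd163l1/Trdv4 cells and none lower, against 4.72% and 7.04% of all genes. Only 2 were higher with edgeR's robust estimate of the spread between genes. Il17a stood at 867, 864, 1399, 0 and 3878 CPM against 63.0 to 473 in TRB-positive cells, with combination 1 at 0 and combination 2 the highest. It was 2.16 ± 0.19 log2 higher (edgeR adjusted p = 1.83e-28), and the call was lost with the robust estimate (adjusted p = 0.393) and in DESeq2 (adjusted p = 0.48); without combination 2 the difference was 1.34. Il22 stood at 168, 1713, 640, 224 and 176 CPM and was lost with it too (1.90 ± 0.21, edgeR adjusted p = 9.02e-18, and 0.297 with the robust estimate). Csf2, which encodes the cytokine GM-CSF, stood at 14.0, 115, 108, 34.5 and 141 CPM against 1.72 to 9.83, and its call held in every alternative run (3.76 ± 0.40, edgeR adjusted p = 4.15e-19). Il17f was at 0, 0, 63.3, 0 and 247 CPM and was not called (0.73 ± 0.35, edgeR adjusted p = 0.176).

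Few cells carried most of the Il17a. With each cell thinned to 2000 UMIs, Il17a was detected in 17 of 101 cells (16.8%; 5 shallower cells left out; 18 of 106 without thinning). The background measured the same way was 7 of 182 other Trdc cells (3.85%) and 34 of 2496 Cd8a-positive TRB-positive cells (1.36%), a type not known as a main source of interleukin 17. By library the shares were 2 of 18, 3 of 16, 5 of 39, 0 of 13 and 7 of 15, so combination 1 (at most 23.1%) and combination 2 (46.7%) stood at opposite ends. The combination mean was 8.40 percentage points above the untreated mean (two-sided exact permutation p = 1.0); without combination 2 the difference was -14.9 points. Of 673 Il17a UMIs in all, 330 came from combination 2, 144 of them from 1 cell, and 124 lay in the 4 Il17a cells that had a TRA contig.

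Of 21 cytokine receptor genes tested, 11 were higher in Cd163l1/Trdv4 cells and 5 lower, against 4.72% and 7.04% of all genes. Il23r, the receptor for the cytokine that maintains type 17 cells, stood at 112, 158, 94.97, 224 and 82.3 CPM against 2.26 to 14.3 (4.16 ± 0.36, edgeR adjusted p = 4.53e-29). Il1r1, the interleukin 1 receptor, stood at 126, 130, 158, 51.7 and 82.3 CPM against 6.24 to 16.3 (3.29 ± 0.36, edgeR adjusted p = 7.65e-18). Every library was higher for both. Il18r1, Il12rb1 and Il2ra were higher by 2.14, 2.73 and 2.16 log2, while the interleukin 6 receptor genes Il6st and Il6ra were lower by 3.60 and 3.28.

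Genes of tissue residence and surface phenotype differed too. In the list of gamma delta 17 surface and effector genes, 19 of 24 were higher and 2 lower (median 2.33 log2), against 4.72% and 7.04% of all genes. Cxcr6, a chemokine receptor of tissue-resident lymphocytes, stood at 587, 605, 823, 1189 and 1422 CPM against 31.2 to 114 (3.50 ± 0.19; edgeR adjusted p = 2.39e-73, and 0.0447 with the robust estimate). Tmem176b, a cation channel gene expressed in type 17 cells, was at 418 to 1316 CPM against 15.8 to 69.0 and Serpinb1a, a protease inhibitor gene, at 230 to 505 CPM against 5.45 to 41.7; each was 4.54 log2 higher. The relative 5830411N06Rik stood at 0, 28.8, 76.0, 51.7 and 35.3 CPM, above TRB-positive cells (1.15 to 3.54) in 4 of 5 libraries (3.75 ± 0.57, edgeR adjusted p = 1.47e-09). Of 22 chemokine receptor and homing genes, 8 were higher, among them Ccr2 by 2.30 log2, and 5 lower, against 4.72% and 7.04% of all genes. Those lower included S1pr1 (-2.88), a receptor that serves exit from lymph nodes. Ccr6, a receptor of many type 17 cells, was at 0, 14.4, 6.33, 0 and 0 CPM and was not called (-1.45, edgeR adjusted p = 0.397).

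Of 19 checkpoint and costimulation receptors, 3 were higher and 8 lower (6 with the robust estimate), against 4.72% and 7.04% of all genes. The median of the receptors was -0.25 log2 against -0.30 over all genes. Pdcd1, which encodes PD-1, the target of the antibody, was among those higher: it stood at 27.9, 288, 57.0, 207 and 482 CPM against 15.8 to 56.8 (1.94 ± 0.25, edgeR adjusted p = 1.31e-12). Each library exceeded its own TRB-positive cells, with untreated 1 and S. chamaejasme the lowest and combination 2 the highest. Cd27, whose absence marks interleukin 17-producing gamma delta cells, stood at 0, 43.2, 38.0, 17.2 and 0 CPM against 104 to 191 (-2.90 ± 0.37, edgeR adjusted p = 2.06e-13). Cd28 was lower by 1.15 log2. Icos stood at 741, 749, 798, 1051 and 1481 CPM against 348 to 570 (0.69 ± 0.16, edgeR adjusted p = 0.000285), a call lost without combination 2 (adjusted p = 0.051) and in the Trdc-positive cells alone (0.351). Among 24 type 1 and cytotoxic genes 13 were higher and 4 lower, against 4.72% and 7.04% of all genes. Klrk1, the receptor NKG2D, was higher by 2.91 and Ccl5, a chemokine of cytotoxic cells, lower by 1.27. Ifng, at 252, 144, 241, 0 and 11.8 CPM, was 0.87 ± 0.27 higher (edgeR adjusted p = 0.0152), which DESeq2 did not call (adjusted p = 0.596).

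The remaining lists were counted in the same way. Over all genes tested, 4.72% were higher and 7.04% lower. Of the genes tested, 12 of 29 in T cell receptor signalling and immediate early response were higher and 4 lower. In tissue repair 4 of 8 were higher and 1 lower, and in apoptosis and survival 6 of 26 higher and 3 lower. Near the share of all genes were glycolysis and hypoxia (2 of 24 higher, 1 lower), lipid uptake (1 of 13 higher), the type I interferon response (1 of 18 higher, 2 lower) and proliferation (1 of 16 lower). Areg, an epidermal growth factor receptor ligand of repair, was at 0, 14.4, 31.7, 0 and 200 CPM and was not called (0.10, edgeR adjusted p = 0.913). Of 15 heat shock and dissociation genes 2 were higher and 4 lower, and 4 of 5 RNA quality transcripts were lower.

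**Figure D3:**
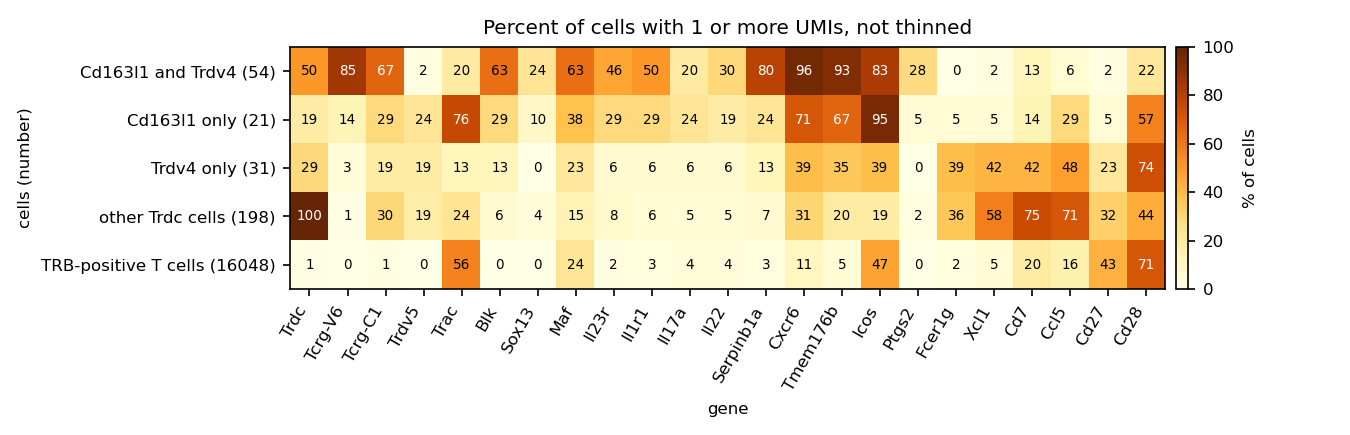
Percentage of cells with at least 1 UMI of each gene (columns, not thinned) in the 3 sets of Cd163l1/Trdv4 cells, the other Trdc cells and TRB-positive T cells, with the number of cells in each set. Tcrg-V6 was found in 85.2% of cells with both genes and in 3.23% of those with Trdv4 only, while Xcl1 and Fcer1g were found mainly in the Trdv4-only and other Trdc cells.

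The cells with both genes also differed from the remainder outside the receptor. Blk was detected in 34 of the 54 cells with both, 6 of 21 with Cd163l1 only and 4 of 31 with Trdv4 only; Il23r in 25, 6 and 2; and Serpinb1a in 43, 5 and 4. Fcer1g was detected in 12 of the 31 cells with Trdv4 only against 0 of 54 with both (at most 5.56%), the chemokine gene Xcl1 in 13 against 1, and Ccl5 in 15 against 3; these 3 genes were chosen after their values were seen, and the counts are not tested. Median depths were 3831.5, 4349 and 3759 UMIs. Since all 3 sets enter every other comparison, the values of Cd163l1/Trdv4 cells are those of this mixture.

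The 75 cells with Cd163l1 were compared with the 31 cells with Trdv4 only. Of 503 genes tested, 16 were called (3.18%; 15 higher, 2.98%, and 1 lower, 0.199%), 14 of them in the same direction in all 5 libraries. Serpinb1a stood at 506, 401, 561, 693 and 612 CPM against 159, 0, 45.5, 48.8 and 0 (3.87 ± 0.54, edgeR adjusted p = 0.000972). S100a6, a calcium-binding protein gene of activated and memory lymphocytes, stood at 1027, 1853, 1904, 2024 and 3303 CPM against 0, 407, 728, 244 and 538 (2.28, edgeR adjusted p = 0.000972). Icos stood at 766, 1152, 1009, 1545 and 1709 CPM against 477, 203, 250, 147 and 404 (2.21 ± 0.34, edgeR adjusted p = 0.0021). None of these 3 overlapped between the sets. Cd28 was the 1 gene lower, at 261, 150, 193, 26.6 and 171 CPM against 636, 508, 614, 244 and 740 (-1.78 ± 0.34, edgeR adjusted p = 0.00806), a call lost without the filter on low counts (0.303). Of the type 1 and cytotoxic genes 5 could be tested and none was called, and no NK marker could be tested. Il17a was higher by 3.69 log2 (edgeR adjusted p = 0.00317), not in DESeq2 (adjusted p = 0.107). Among the Trdc-positive cells alone only 2 genes were called, and Icos (adjusted p = 0.0517) and S100a6 (0.229) were not among them.

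The other Trdc cells were 198 TRB-negative T cells with a Trdc UMI and neither Cd163l1 nor Trdv4. By library they numbered 8, 22, 113, 34 and 21. Trac was detected in 48 of them and their alpha contigs are not reported here. Not every one is therefore placed among gamma delta T cells. They were compared with the Cd163l1/Trdv4 cells. Of 1116 genes tested, 160 differed (14.3%; 108 higher, 9.68%, and 52 lower, 4.66%, in Cd163l1/Trdv4 cells), 135 of them in the same direction in all 5 libraries. DESeq2 called 70. Trdc was not compared, since it chose the other cells.

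Cd163l1/Trdv4 cells were higher in type 17 genes. Serpinb1a (230 to 505 CPM) exceeded the other Trdc cells at 0, 36.8, 64.0, 42.4 and 51.4 CPM by 3.08 ± 0.29 log2 (edgeR adjusted p = 1.55e-05). Blk exceeded them, at 0, 49.0, 30.7, 18.2 and 20.6 CPM, by 2.99 ± 0.37 (edgeR adjusted p = 0.000153). Neither gene overlapped between the classes in any library. Maf, which did not separate the cells from TRB-positive cells, stood at 168, 202, 139, 207 and 153 CPM against 48.7, 24.5, 48.6, 30.3 and 51.4 (1.93 ± 0.32, edgeR adjusted p = 0.00107). Cxcr6 was higher by 2.45, Icos by 2.67, Ccr2 by 2.51, Rora by 2.03 and Ckb, the brain-type creatine kinase gene, by 3.04 log2. Of the gamma delta 17 surface and effector genes 14 of 15 tested were higher (12 with the robust estimate) and none lower (median 1.81). Of the transcription factors 6 of 9 were higher and none lower. Over all genes in this comparison 9.68% were higher and 4.66% lower. Il17a, at 0, 441, 156, 0 and 1030 CPM in the other Trdc cells, was 2.27 log2 lower there (edgeR adjusted p = 0.00205, and 0.131 with the robust estimate).

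The other Trdc cells were higher in several cytotoxic genes, though not in all. Ccl5 stood at 825, 590, 1064, 913 and 470 CPM in Cd163l1/Trdv4 cells against 2167, 3969, 6358, 10420 and 5699, lower by 2.82 ± 0.24 log2 (edgeR adjusted p = 6.85e-06). Nkg7, a granule protein gene, Cd160, a receptor gene of cytotoxic cells, and Ctsw, a protease gene of killer lymphocytes, were lower by 1.42, 1.78 and 1.13. Of 14 type 1 and cytotoxic genes tested 7 were lower (5 with the robust estimate) and none higher, against 4.66% and 9.68% of all genes (median -1.02). Gzmb, the granzyme B gene, was detected in 22.6% of Cd163l1/Trdv4 cells and 13.1% of other Trdc cells. Klrc1 was detected in 35.85% and 28.8%, and Tbx21 in 24.5% and 18.2%. These shares were neither thinned nor tested. Fcer1g, at 0, 57.6, 184, 207 and 23.5 CPM against 268, 110, 453, 418 and 185, was lower by 1.63 (edgeR adjusted p = 0.00932), a call lost without the library block (adjusted p = 0.0636).

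TRB-positive cells with Il17a RNA, 598 in number, were taken as alpha beta cells of type 17. All of them had Il17a by choice, against 18 of the 106 Cd163l1/Trdv4 cells. Of 3258 genes tested, 212 differed (6.51%; 115 higher, 3.53%, and 97 lower, 2.98%, in Cd163l1/Trdv4 cells), 187 in the same direction in all 5 libraries. Il17a chose the alpha beta cells, so its level there (4294, 4084, 4567, 4561 and 3400 CPM) is given without a test.

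For 2 cytokine receptors of type 17 cells that both classes express, no difference was called. Il23r stood at 82.3 to 224 against 58.5 to 76.0 (0.86 ± 0.25, edgeR adjusted p = 0.0514) and Il1r1 at 51.7 to 158 against 34.1 to 71.1 (1.08 ± 0.32, edgeR adjusted p = 0.0572). With only the cells that had both genes both were called, at 1.38 and 1.74 log2. Maf was lower, at 139 to 207 CPM against 235 to 413 (-1.01 ± 0.20, edgeR adjusted p = 0.00503), but not in the cells with both genes (adjusted p = 0.169) or with Trdc (0.0619).

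Against these cells the Cd163l1/Trdv4 cells were higher in Ptgs2 (7.28 log2), Tcrg-V6 (6.32), Clnk (6.22), Abi3bp (5.46), Trdc (5.26), Blk (4.47 ± 0.54, edgeR adjusted p = 7.76e-05) and Zbtb16 (4.03 ± 0.62, edgeR adjusted p = 0.000761). Pdcd1, at 11.1, 26.1, 19.5, 83.3 and 50.1 CPM in the alpha beta cells, was 2.34 ± 0.35 higher (edgeR adjusted p = 0.000619). All 5 libraries agreed in direction for these 8 genes. Of 14 type 1 and cytotoxic genes 11 were higher (8 with the robust estimate) and none lower, against 3.53% and 2.98% of all genes (median 1.98). Those higher included Klrk1 (2.67), Tbx21, the type 1 factor T-bet (2.45), and Nkg7 (1.75).

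Genes lower in Cd163l1/Trdv4 cells included chemokine, homing and helper genes. Ccl20, the ligand of Ccr6, stood at 0, 0, 6.33, 0 and 0 CPM against 224, 171, 246, 404 and 78.8; it rested on 1 UMI against 614, a ratio of 0.00995 (95% counting interval 0.000252 to 0.0557; edgeR adjusted p = 1.56e-06). Ccr6 rested on 2 UMIs against 201, a ratio of 0.0608 (0.00732 to 0.223; edgeR adjusted p = 0.000508). The Ccl20 UMIs lay in 1 of 106 cells against 61 of 598, and the Ccr6 UMIs in 2 of 106 against 143 of 598. UMIs of 1 cell are not independent of each other, so both intervals are too narrow. Both genes were nearly absent from the Cd163l1/Trdv4 cells. Most of the alpha beta cells lacked them too, although each gene was detected in those cells in every tumour. Ccl20 was detected in 10.2% of the Il17a alpha beta cells, 0.779% of all TRB-positive cells and 0.943% of Cd163l1/Trdv4 cells. For Ccr6 these shares were 23.9%, 3.03% and 1.89%. The choice by Il17a thus also chose for both genes, and their differences are not independent of it. Tnfsf8, the CD30 ligand gene, Cd6, a T cell adhesion receptor gene, Cd40lg, the helper ligand, and Cd28 were lower by 4.90, 3.39, 2.35 and 1.81 log2. Il17f stood at 0, 0, 63.3, 0 and 247 CPM against 366, 878, 829, 1103 and 661 (-3.55, edgeR adjusted p = 0.00026, and 0.0977 with the robust estimate). It was detected in 38.6% of the Il17a alpha beta cells and 1.85% of all TRB-positive cells. The choice by Il17a therefore also chose for Il17f, and its difference is not independent of that choice. Of 13 checkpoint and costimulation receptors 7 were lower (6 with the robust estimate) and 1, Pdcd1, higher, against 2.98% and 3.53% of all genes.

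**Figure D4:**
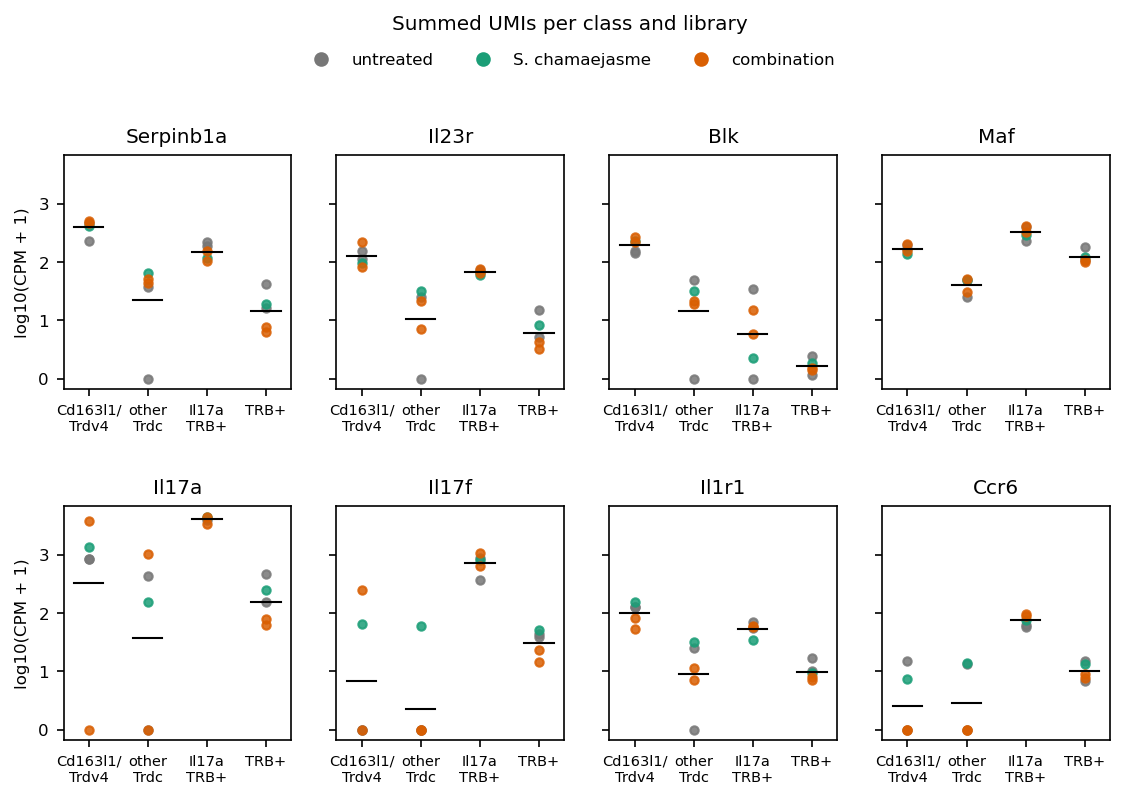
Levels of 8 genes of type 17 cells as log10(CPM + 1) per library (points) in Cd163l1/Trdv4 cells, other Trdc cells, TRB-positive cells with Il17a (labelled Il17a TRB+) and all TRB-positive cells (TRB+); bars are means over the 5 libraries. Blk is highest in the Cd163l1/Trdv4 cells in every library, at 144 to 276 CPM, and Ccr6 is highest in the Il17a TRB+ cells in every library.

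Within the Cd163l1/Trdv4 cells, treatment was compared over the libraries, with the untreated libraries shared by both comparisons. Between combination and untreated tumours 5 of 1529 genes were called (0.327%), all lower with the combination, and between the S. chamaejasme tumour and the untreated ones 3 (0.196%), all lower; the S. chamaejasme group is 1 library, which is assumed to vary like those of the other groups. Between combination and S. chamaejasme edgeR called none (0.0%; 29 genes at an unadjusted p under 0.05), and DESeq2 called none either. With 14 to 41 cells a library, single cells can decide these values.

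Of the 5 genes, Ifng was the 1 cytokine. It stood at 252 and 144 CPM in untreated, 241 in S. chamaejasme and 0 and 11.8 in combination tumours, so that the combination libraries lay below the other 3. It fell by 4.63 ± 0.92 log2 (edgeR adjusted p = 0.0358) and rested on 1 UMI in the combination against 28 in untreated cells, a ratio of 0.0352 (95% counting interval 0.000860 to 0.213). Those UMIs lay in 1 of 29 combination cells and 4 of 36 untreated cells, so they are not independent of each other and the interval is too narrow. The call was lost in DESeq2 (adjusted p = 0.999), without the cells with a TRA contig (0.0776), in the cells with both genes (0.763), in the cells with Trdc (0.471), without the S. chamaejasme library (0.336) and without combination 2 (0.892). Il17a was not called (1.12 ± 0.92, edgeR adjusted p = 0.891), although without combination 1 it was (2.09, adjusted p = 7.34e-05); combination 1 had no Il17a UMI and combination 2 had 330.

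The other 4 called genes included 3 of the transcripts listed as signs of RNA quality. Gm42418, which overlaps ribosomal RNA repeats, stood at 13840 and 32530 CPM in untreated, 6775 in S. chamaejasme and 6893 and 5159 in combination cells (-1.98, edgeR adjusted p = 0.000835, and 0.782 with the robust estimate). AY036118 lies within the bounds of Gm42418 on the opposite strand, so it is not a separate locus. It stood at 4291, 2592, 766, 724 and 552 CPM (-2.49 ± 0.33, edgeR adjusted p = 0.000835). Lars2, a mitochondrial tRNA synthetase gene with reads of ribosomal origin, stood at 2138, 1973, 266, 586 and 341 (-2.21 ± 0.37, edgeR adjusted p = 0.0102). In the S. chamaejasme comparison, which uses the same untreated libraries, the log2 values of Gm42418, AY036118 and Lars2 were -1.78, -2.19 and -2.96. The whole list summed to 39980, 54950, 22190, 25200 and 21320 CPM in Cd163l1/Trdv4 cells and to 37000, 45820, 23150, 26210 and 25730 in TRB-positive cells, so it was higher in both untreated libraries in either class. Its part in the treatment differences was not tested. Rps29, a ribosomal protein gene, was the fifth (-0.998, edgeR adjusted p = 0.0358; DESeq2 0.999).

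Whether combination and untreated tumours differed by the same amount in these cells as in TRB-positive cells was tested as an interaction. Of 10710 genes, 16 were called (0.149%; 11 higher, 0.103%, and 5 lower, 0.0467%), and 319 had an unadjusted p under 0.05. This fit too drew every gene's spread to the common trend. With the robust estimate 9 genes were higher and 4 lower, and DESeq2 called 3 genes. Cxcr6 stood at 587 and 605 CPM in untreated and 1189 and 1422 in combination Cd163l1/Trdv4 cells. In TRB-positive cells it stood at 113 and 56.9, then 31.2 and 35.6. The levels of the 2 classes thus went opposite ways, with log2 changes that differed by 2.31 ± 0.40 (edgeR adjusted p = 3.07e-05). Its rise within the Cd163l1/Trdv4 cells alone was not called, since 0 of 1529 genes were called higher there. Serpinb1a stood at 475 and 230, then 465 and 505 CPM, against 41.7 and 15.3, then 5.45 and 6.72, a difference of 2.54 ± 0.47 (edgeR adjusted p = 0.000195). Here the untreated and combination libraries of Cd163l1/Trdv4 cells overlapped and those of TRB-positive cells did not. Tmem176b was at 741 and 418, then 896 and 1316 CPM, against 69.0 and 23.3, then 16.1 and 15.8 (2.25, edgeR adjusted p = 9.97e-05). The make-up of the TRB-positive cells differed too: cells with Il17a were 11.5%, 3.59%, 5.29%, 1.73% and 1.82% of them. Over all libraries those Il17a cells held 430 CPM of Cxcr6, 157 of Serpinb1a and 298 of Tmem176b against 58.0, 12.3 and 26.5 in all TRB-positive cells; the part of this in the interaction was not tested.

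Several other genes called in the interaction rested on 1 library or on zeros. Gzmb, the granzyme B gene, stood at 41.9, 360, 329, 190 and 1551 CPM, with 77 of its UMIs in 1 cell of combination 2; its difference of 3.38 (edgeR adjusted p = 2.2e-08) had an adjusted p of 1.0 with the robust estimate. Il17a likewise went from an edgeR adjusted p of 0.0025 to 1.0. Il17f, at 0, 0, 63.3, 0 and 247 CPM, had UMIs in combination 2 but none in combination 1 or either untreated library. S1pr1 was at 0 CPM in both combination libraries of Cd163l1/Trdv4 cells. No gene was called without combination 2 or with only the Trdc-positive cells.

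**Figure D5:**
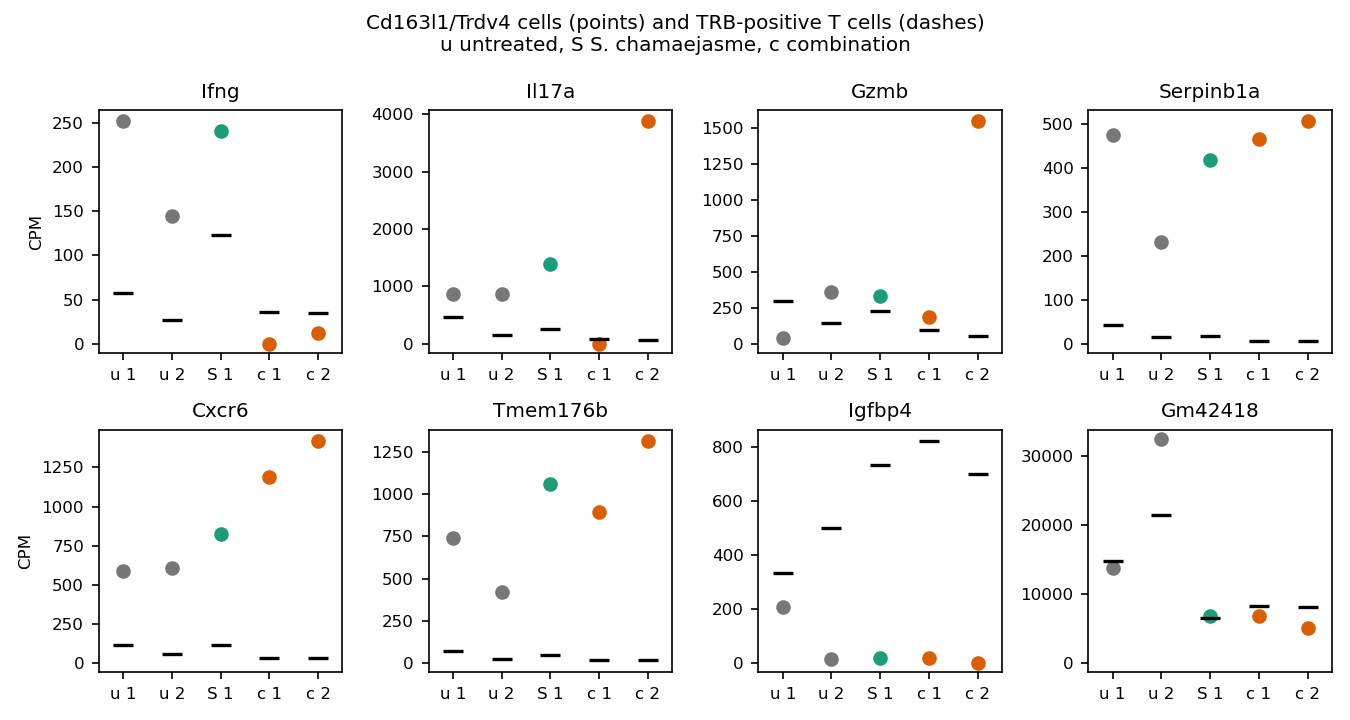
CPM of 8 genes per library in Cd163l1/Trdv4 cells (points; u untreated, S S. chamaejasme, c combination) and in TRB-positive T cells (dashes). Ifng was at 0 and 11.8 CPM in the combination libraries, Il17a and Gzmb were highest in combination 2, and Gm42418 was highest in the untreated libraries in both classes.

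Of the markers of other cell types, many were at 0 in the Cd163l1/Trdv4 cells and some were above TRB-positive cells. Summed NK markers stood at 0, 187, 374, 276 and 35.3 CPM (296, 71.5, 235, 121 and 105 in TRB-positive cells and 233 to 1510 in other Trdc cells), with 5 of 11, Klrb1c among them, at 0; 2 of the 4 tested were higher and 1 lower. B cell markers summed to 17.2 to 153 CPM with Cd79a and Ms4a1 among those at 0, and 1 of 3 tested was higher and 1 lower. Myeloid markers summed to 154, 259, 139, 241 and 247 CPM against 102, 101, 147, 93.5 and 106 in TRB-positive cells, higher in 4 of 5 libraries, with 11 of 14 genes, among them Lyz2 and Csf1r, at 0; the 1 gene tested, Cst3, a widely expressed protease inhibitor gene, was higher by 0.66 log2 (edgeR adjusted p = 0.0368). Epithelial and stromal markers summed to 28.8 to 94.0 CPM with 8 of 12 at 0 and 1 of 2 tested, Epcam, higher (1.61, edgeR adjusted p = 0.0467). Of 7 mast cell and erythroid markers only Kit was detected, and it was higher by 2.04 log2 (edgeR adjusted p = 4.66e-05). The alpha beta T cell markers summed to 1123 to 1585 CPM against 1405 to 1682 in TRB-positive cells, and 4 of the 5 tested were lower, with Trac at 182, 144, 139, 68.9 and 23.5 CPM (-1.29 ± 0.24, edgeR adjusted p = 2.13e-06) and Cd4 lower by 2.22. Over all genes tested against TRB-positive cells 4.72% were higher and 7.04% lower. The part of the marker genes in the comparisons above was not tested.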

How the data were processed

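The deposited values are UMI counts per gene and cell of 5 RNA libraries and, as tables of contigs, the receptor chains of the same 5 tumours; per the submitters' processing notes the authors used Cell Ranger 3.1.0 and STAR with the build mm10, and neither a STAR version nor an annotation release is stated in the sources. The Cd163l1/Trdv4 cells and the gene lists were chosen with earlier results of these data known. Cells were grouped by the labelled treatment. For each library the raw counts were summed over the cells of a class and fitted with edgeR 4.0.16 in R 4.3.3 (TMM scaling, filterByExpr, quasi-likelihood test, Benjamini-Hochberg adjusted p under 0.05), with the library as a block in comparisons of classes. In 2 fits, the one against TRB-positive cells and the interaction, edgeR drew every gene's spread to the common trend. There a gene's own spread between libraries entered its p-value only through that trend. For this reason edgeR's robust estimate and DESeq2 1.42.0 were alternatives. Others were another scaling (RLE), no filter, narrower member sets, no block, no cells above the 98th percentile of UMIs, and leaving out each library. The robust estimate and the cells with both genes were added after seeing the data. Shares were thinned to 2000 UMIs a cell, with 1000 as an alternative. The genes that chose the cells were left out of the calls. Named genes were the 12 with the largest change each way among those called with at least 50 CPM in the higher class and the same direction in every library (for groups, no overlap), up to 4 of each of 22 lists with any that passed, and 15 type 17, gamma delta and checkpoint genes given throughout; of these, the text prints those its results turn on, and the results of some are not reported here. On simulated data 200 genes were changed by 2 log2 units. The fits recovered 77% for combination against untreated (1460 genes), 100% for the class comparison (8824) and 42% for the interaction (10436). Of the calls, 6.67%, 4.31% and 0% were false. The changed genes were drawn only from those with enough counts in these cells. Counts were drawn independently, with the same spread for every gene. These shares therefore do not give the power in the real cells, where single cells can hold much of a gene. Feature identifiers were matched to GENCODE M21 on GRCm38 for coordinates and sequences (30934 of 31053 matched). Reads of Tcrg, granzyme, Il22 and other families of close copies can be split between members. Python 3.11.15 with numpy 2.4.6, scipy 1.17.1 and pandas 2.3.3 was used for the remainder.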

Additional observations from a re-analysis of the deposited data

Results flagged for a closer look

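In 16 genes, of which 15 are named here, the difference between combination and untreated tumours was itself different in Cd163l1/Trdv4 cells and in TRB-positive T cells (edgeR's quasi-likelihood test of the interaction, adjusted over 10710 genes). The adjusted p was 2.2e-08 for Gzmb, 3.07e-05 for Cxcr6, 9.15e-05 for Il17f, 9.97e-05 for Tmem176b, 0.000195 for Serpinb1a, 0.000282 for Igfbp4, 0.00209 for Lgals3, 0.00241 for Tmem176a and 0.0025 for Il17a. It was 0.00574 for Lmo4, 0.00585 for Ifng, 0.0102 for Ubald2, 0.0347 for S1pr1, 0.0374 for Ifi27l2a and 0.0458 for Cd7. With edgeR's robust estimate the values were 1.0 for Gzmb and Il17a, 0.138 for Ifi27l2a and 0.0714 for Cd7. Il17f stood at 0, 0, 63.3, 0 and 247 CPM in Cd163l1/Trdv4 cells, so its value rests on combination 2. Lgals3, the galectin 3 gene, stood at 503, 288, 975, 827 and 811 CPM in Cd163l1/Trdv4 cells against 82.9, 38.0, 111, 32.3 and 23.97 in TRB-positive cells, so that it was higher with the combination in the first and lower in the second. Lmo4 stood at 168, 130, 329, 534 and 294 CPM against 71.1, 59.5, 55.2, 32.7 and 32.6, with the same pattern. Neither rise was called within the Cd163l1/Trdv4 cells alone, where 0 of 1529 genes were called higher with the combination. TRB-positive cells with Il17a, whose share differed between the groups, held 319 CPM of Lgals3 against 49.6 in all TRB-positive cells. The part of this in the interaction was not tested. Igfbp4, at 210, 14.4, 19.0, 17.2 and 0 CPM against 334 to 824, had an adjusted p of 1.0 without untreated 1.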

How the results depend on the processing

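With 14 to 41 cells a library, low genes could not be tested. Over the single genes named, 8996 of 10290 values kept their direction and side of the threshold, 635 lost the call, 118 gained it, 528 uncalled values moved and 13 reversed. For combination against untreated the 5 genes called became 3 in DESeq2, 0 with Trdc-positive cells and 2 without TRA-contig cells, and 0 to 26 when a library was left out (22 and 26 without untreated 1 and 2, 10 without combination 1, 0 without S. chamaejasme or combination 2). For S. chamaejasme the 3 became 0 with Trdc-positive cells and 0 without TRA-contig cells, and 0 to 22 without a library (22 and 7 without untreated 1 and 2, 0 without combination 2). For combination against S. chamaejasme the 0 became 1 under RLE, without the filter, without high-UMI cells, in cells with both genes and with the robust estimate, and 0 to 6 without a library (3 and 6 without untreated 1 and 2, 5 without combination 1). Against TRB-positive cells the 1044 became 683 with Trdc-positive cells and 726 to 944 without a library. Against other Trdc cells the 160 became 70 in DESeq2, 274 without the filter, 94 with Trdc-positive cells and 77 to 192 (77 without S. chamaejasme, 102 and 95 without combination 1 and 2). Against Il17a TRB-positive cells the 212 became 140 in DESeq2, 481 without the filter and 114 to 203 (114 without S. chamaejasme). For Cd163l1 against Trdv4-only cells the 16 became 60 without the filter, 2 with Trdc-positive cells, 9 without the library block and 9 to 27 (27 and 10 without untreated 1 and 2, 9 without S. chamaejasme). In the interaction the 16 became 3 in DESeq2, 0 with Trdc-positive cells, 8 in cells with both genes and 0 to 38 (38 without untreated 2, 0 without combination 2). The difference in share of T cells was -0.156 points with Trdc-positive cells, -0.153 in cells with both genes and -0.565 to -0.189 without a library; that in the Il17a share was -5.0 in cells with both genes and -14.9 to 31.7 (31.7 without combination 1, -14.9 without combination 2). Against TRB-positive cells, log2 values reversed for Ifng (-0.17) and Xcl1 (-4.20) in cells with both genes, Ctsw with Trdc-positive cells (-0.031), and Ifitm3 in DESeq2 (-0.98), with Trdc-positive cells (-9.86), without TRA-contig cells (-9.82), in cells with both genes (-9.86) and without untreated 2 (-1.89; 2.15 without S. chamaejasme). Against Il17a TRB-positive cells Gata3 (-1.22) and Ccl5 (-1.90) reversed in cells with both genes, and in the interaction Il17a in DESeq2 (-0.38) and without combination 2 (-13.3; 4.27 without combination 1) and Ifi27l2a in cells with both genes (10.02). The causes were not tested. Treatment groups could not be paired, because the labels tie no tumour of a group to a tumour of another. The numbers used for tumours of a group follow accession order and pair nothing. Classes of cells were paired within a library by the library block.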
